A study of Mus musculus with 24 samples.

Results

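The comparison was between dexamethasone and saline vehicle in the tibialis anterior, the fast-twitch shin muscle that lifts the foot, of male C57BL/6 mice aged 4 months. The dexamethasone mice had received 1 mg/kg/day under the skin for 7 days and the vehicle mice saline for as long, and the muscle was taken 6.5 h after the last injection from both. The members were chosen by label, as all libraries of 4-month mice, which gave 6 dexamethasone and 6 vehicle libraries, 12 of the 24 in the series. The other 12 came from 24-month mice on the same 2 treatments. The mice were of an inbred laboratory strain and received the drug systemically, so a change in muscle RNA cannot be assigned to an action on the muscle alone. The labels speak of mice randomised to equal body weight and number the samples, without saying how many mice a library holds, and the p-values measure the spread between these libraries.

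Dexamethasone is a synthetic glucocorticoid. It binds the glucocorticoid receptor, which moves to the nucleus, binds DNA at glucocorticoid response elements and raises transcription there, and represses many inflammatory genes by acting on other transcription factors. In skeletal muscle, glucocorticoids are known for raising protein breakdown and the use of amino acids and fat as fuels, for lowering growth signalling, and for a loss of mass that is greatest in fast fibres.

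Polyadenylated RNA was sequenced, and each value below is a deposited rlog value, a regularised log2 expression level in which weakly expressed genes are pulled toward their mean. It is not corrected for gene length, so levels are compared within a gene and never between genes. Differences are dexamethasone minus vehicle on this log2 scale, with their standard error (SE). A gene was called when its limma p-value, adjusted over all genes tested by the Benjamini-Hochberg method, was under 0.05, and it is called robust here when that also held in each of the 12 fits that left out 1 library. The word covers that check alone: of 99 robust genes named here, 25 lost their call when all 4 groups of the series shared 1 estimate of the spread, a setting given as the shared spread beside those genes and some lists. With the shared spread fewer genes were called at large, 360 of 12866 higher and 110 lower, against 478 and 227 in the main fit. Without counts in the table, sequencing depth could not be read for any library.

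The tissue label was checked against markers of muscle. All 12 myofibre markers were measured and none was called in either direction, against 5.48% of all genes tested. All 12 had a difference above 0, with a median of 0.06, against 50.6% of all genes above 0. Ckm, the muscle creatine kinase, lay between 16.41 and 16.50 with dexamethasone and between 16.33 and 16.44 with vehicle. Of the B lymphocyte markers, 8 of 10 were in the table and none passed the level filter, and of the T and NK lymphocyte markers 15 of 16 were in the table and 1 passed. Of the 12 libraries, vehicle 3 and dexamethasone 5 stood apart on the first 2 principal components of the 500 most variable genes, which held 38.9% and 25.3% of their variance. Both had high values of Socs3, a feedback inhibitor of cytokine signalling, and Rrad, a small GTPase that restrains calcium channels, 2 genes picked after their values were seen. Socs3 stood at 10.86 in dexamethasone 5, against 7.34 to 8.43 in the other dexamethasone libraries, and at 10.50 in vehicle 3, against 7.35 to 8.17 in the other vehicle libraries. Without these 2 libraries 455 genes were higher and 220 lower.

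With dexamethasone 478 of 12866 genes were higher (3.72%) and 227 were lower (1.76%), 5.48% in all. Of the calls, 317 rises and 124 falls were robust. In 352 genes (2.74%) all 6 dexamethasone values lay above all 6 vehicle values, and in 139 (1.08%) all lay below. The changes were mostly small: the median absolute difference of the called genes was 0.299, 138 reached 0.5 and 14 reached 1. Over all genes tested the median difference was 0.00101, with 50.6% of genes above 0.

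**Figure D1:**
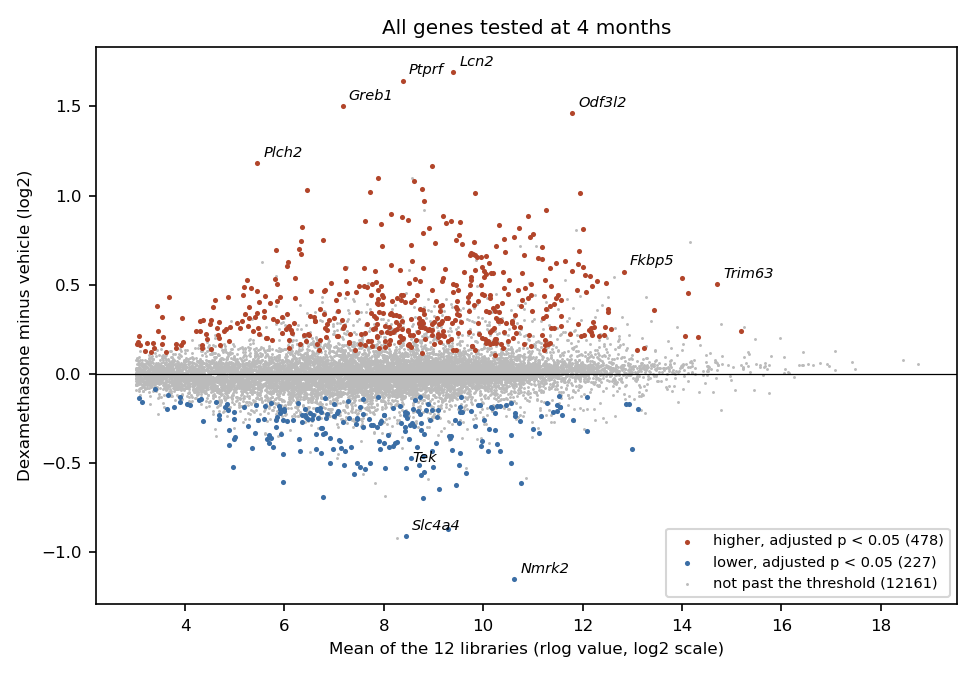
Difference between dexamethasone and vehicle (log2, vertical axis) against the mean of the 12 libraries (rlog value, log2 scale, horizontal axis) for 12866 genes, with 478 called higher in red, 227 called lower in blue and the rest in grey. The largest rises, led by Lcn2 at 1.69, reach further from 0 than the largest falls, led by Nmrk2 at −1.15.

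The largest rises among robust genes with no overlap between the groups were in Lcn2, Ptprf, Greb1 and Odf3l2, and their separation can be read in the single libraries. Lcn2, encoding the siderophore-binding lipocalin 2, had a lowest, median and highest value of 9.81, 10.07 and 11.35 with dexamethasone, against 8.03, 8.65 and 8.86 with vehicle. The top dexamethasone value came from library 5, and the remaining dexamethasone libraries lay within 9.81 to 10.24. Ptprf, a receptor-type tyrosine phosphatase, had 8.77, 9.24 and 9.65 with dexamethasone, against 7.35, 7.52 and 7.88 with vehicle. Odf3l2, an outer dense fibre protein family member, had 12.36, 12.53 and 12.66 with dexamethasone, against 10.55, 11.07 and 11.70 with vehicle. Every dexamethasone library was above every vehicle library in all 4 genes, as the choice of genes without overlap required.

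The rises ranked 5 to 10 ran from 1.18 for Plch2, a phospholipase C, to 1.03 for Dio2, and those ranked 11 to 20 were between 0.86 and 1.02, close to a doubling. Plch2 had 5.34, 5.90 and 7.15 with dexamethasone, against 4.78, 4.84 and 4.96 with vehicle. Pag1, an adaptor that holds the Src-inhibiting kinase Csk at the membrane, had 7.78, 8.21 and 8.64 with dexamethasone, against 6.90, 7.23 and 7.39 with vehicle (1.02 ± 0.12 SE, 2.03-fold, limma adjusted p = 0.000376). Amotl2, a scaffold of cell junctions that binds the growth regulator YAP, had 9.89, 10.39 and 10.60 with dexamethasone and 9.10, 9.34 and 9.51 with vehicle (1.02 ± 0.11). Elmo1, a partner of Rac-activating DOCK proteins, had the tightest values of the group, 7.91, 8.02 and 8.22 with dexamethasone and 7.11, 7.19 and 7.28 with vehicle (0.86 ± 0.06, adjusted p = 6.22e-06). The groups did not overlap in any of these genes, a condition of their choice. Doc2b, a calcium sensor of vesicle fusion that promotes insulin-stimulated glucose uptake, rose by 0.97 and Prom1, the membrane protein prominin 1, by 0.88. Ppp1r13b, encoding the p53-binding protein ASPP1, rose by 0.86, Pnmt, which makes adrenaline from noradrenaline, by 0.90, and the unnamed gene 6430548M08Rik by 1.01. In Doc2b and 6430548M08Rik vehicle 3 lay far below the other vehicle libraries, at 7.75 and 10.62, and without it the differences were still 0.85 in both.

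The falls ranked 11 to 20 were between −0.47 and −0.55 and held several genes of vessels and of immunity. Mmrn2, an extracellular glycoprotein of endothelium, had 8.39, 8.50 and 8.74 with dexamethasone, against 9.02, 9.09 and 9.21 with vehicle (−0.55 ± 0.06, adjusted p = 0.000175). Elk3, an ETS-family transcriptional repressor, had 7.53, 7.79 and 7.97 with dexamethasone, against 8.10, 8.25 and 8.66 with vehicle (−0.53 ± 0.10). Ly6e, an interferon-inducible surface protein, fell by 0.51, the nucleoside transporter gene Slc28a2 by 0.50 and the lipid transporter family gene Abca8a by 0.47 (adjusted p = 0.114 with the shared spread). Tek, H2-Eb1 and H2-Ab1 also fell in this range and are described with their groups. The remaining genes of the range were 9330159F19Rik (−0.52) and 6430571L13Rik (−0.51).

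**Figure D2:**
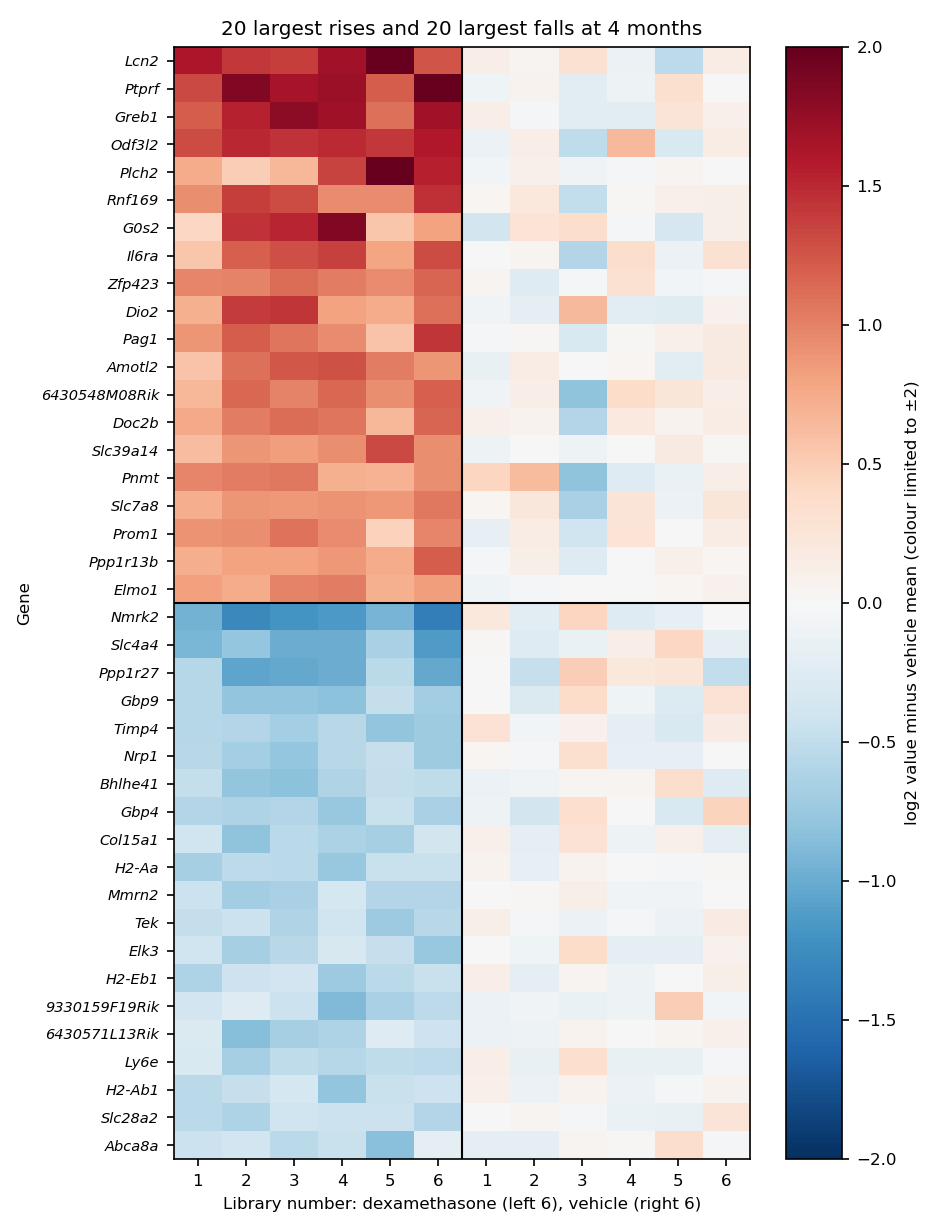
The 20 largest rises and 20 largest falls (rows) in each library (columns 1 to 6 dexamethasone on the left, 1 to 6 vehicle on the right). Colour is the log2 value minus the mean of the vehicle libraries, limited to ±2. Every dexamethasone column is on the same side of 0 within a row, since genes without overlap were chosen. Vehicle 3 is the bluest vehicle column for Doc2b and 6430548M08Rik.

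Apart from Fkbp5, the components of glucocorticoid signalling itself moved little. Known targets of the receptor formed the list with the largest share of rises among pathway lists. Of 23 genes of the receptor machinery, 2 were higher and none lower (8.7%, against 5.48% of all genes), with a median difference of 0.03. The largest rise there was that of Fkbp5, by 0.57, a gene also counted among the targets. Nr3c1, the receptor gene, was at 10.09 to 10.30 with dexamethasone and at 10.15 to 10.46 with vehicle (−0.12 ± 0.05, adjusted p = 0.314), and Hsd11b1, which regenerates active glucocorticoid from its inert form, differed by −0.23 (adjusted p = 0.223). Of 40 glucocorticoid-induced targets, 15 were higher and none lower (37.5%, against 5.48% of all genes), with a median difference of 0.25. The list was drawn up with earlier results of these data known.

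Of those 15 rises, 12 were robust. Fkbp5, a co-chaperone that damps the receptor, had 12.90, 13.18 and 13.23 with dexamethasone, against 12.06, 12.59 and 12.76 with vehicle, where 12.06 was vehicle 3. Cebpd, a transcription factor of stress and inflammation, had 11.36, 11.64 and 11.90 with dexamethasone, against 10.90, 11.20 and 11.25 with vehicle (0.49 ± 0.09, adjusted p = 0.00484). Fam107a, an actin-binding stress-response protein, had 8.79, 9.14 and 9.28 with dexamethasone, against 8.13, 8.51 and 8.72 with vehicle (0.59 ± 0.10, adjusted p = 0.00376). The groups were apart in all of these. Errfi1, a feedback inhibitor of the EGF receptor, rose by 0.44, the transglutaminase gene Tgm2 by 0.25 and Txnip, which binds thioredoxin and restrains glucose uptake, by 0.21. Txnip was the least scattered, at 14.37 to 14.50 with dexamethasone and 14.16 to 14.26 with vehicle. Of its exon bases 19.4% also lie in an antisense gene. With the shared spread 12 of the 40 were higher, against 360 of all 12866 genes, and Errfi1 and Txnip were not called (adjusted p = 0.0908 and 0.155).

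Several targets often used as readouts of the receptor were not called. Tsc22d3, encoding the glucocorticoid-induced leucine zipper GILZ, had 12.42, 12.56 and 12.80 with dexamethasone, against 12.51, 12.61 and 12.86 with vehicle (−0.03 ± 0.08). Its sign turned in single fits with 1 library left out. Zbtb16, a transcription factor, differed by 0.20 (adjusted p = 0.367), Klf9, another, by 0.07 (adjusted p = 0.689) and the kinase gene Sgk1 by 0.29 (adjusted p = 0.0721). In each of these 4 genes the groups overlapped.

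Trim63, encoding the ubiquitin ligase MuRF1 that marks sarcomere proteins for degradation, was higher with dexamethasone, and the stretch before its start site holds the closest match to a glucocorticoid response element, together with one other gene, among the promoters of the called genes. Trim63 had 14.83, 14.94 and 15.10 with dexamethasone, against 14.24, 14.41 and 14.70 with vehicle, with no overlap (0.50 ± 0.09). It lies on chromosome 4 at 134315120 to 134329629 on the plus strand (GRCm38.p6). Shown are the 250 bases before its RefSeq start site, chr4:134314870-134315119, 5′ to 3′, because both motifs in capitals adjoin each other: the element TGAACAGTCTGTTCT at −209 from the start site, with 1 mismatch in its 12 fixed letters, and directly after it the FoxO motif TGTTTAC at −194.
Trim63 promoter: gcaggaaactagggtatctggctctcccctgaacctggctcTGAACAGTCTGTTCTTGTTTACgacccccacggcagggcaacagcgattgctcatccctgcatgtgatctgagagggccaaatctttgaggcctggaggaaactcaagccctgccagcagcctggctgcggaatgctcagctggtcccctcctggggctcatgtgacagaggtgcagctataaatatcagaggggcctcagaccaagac

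The element searched was AGAACA, 3 bases of any kind, then TGTTCT, which is its own reverse complement, with up to 2 mismatches over the 12 fixed letters, on both strands of the 300 bases from 250 before to 50 after each start site. RefSeq gave promoters for 10106 of the genes tested, 12930 windows in all. The element was found in 12 of 491 windows of higher genes (2.44%), in 3 of 220 windows of lower genes (1.36%) and in 143 windows of all genes tested (1.11%). Windows of 1 gene can overlap and count the same element again, as for Fam107a, at −119 and −121 from neighbouring start sites. With no mismatch it was in none of the windows of the called genes and in 1 of all tested. A single AGAACA or TGTTCT, which the longer element can contain, was in 14.3% of the windows of higher genes, 16.4% of lower and 12.5% of all tested. The E-box CACGTG was in 10.4%, 12.3% and 9.91%, and the FoxO motif GTAAACA or TGTTTAC in 3.46%, 3.18% and 2.61%. A match describes these letters only, and binding was not measured.

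For comparison with Trim63, 4 more matches are shown with 10 bases on each side, the element in capitals, each in the direction of its gene. Plpp3, a lipid phosphatase gene, and Tmem252 were picked after their values were seen, as a match with 1 mismatch and the match of the gene with the largest rise, and Fam107a and H2-DMb1 are described elsewhere in the text.
Plpp3: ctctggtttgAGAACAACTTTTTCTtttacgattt
Tmem252: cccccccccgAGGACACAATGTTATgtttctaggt
Fam107a: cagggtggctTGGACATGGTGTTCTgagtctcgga
H2-DMb1: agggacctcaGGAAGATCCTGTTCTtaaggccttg
Plpp3 rose by 0.33, Tmem252 by 0.61 and Fam107a by 0.59, whereas H2-DMb1 fell by 0.20. The element of Plpp3, on chromosome 4 at 105157152 to 105157166, lay 195 bases before the start site. That of Fam107a, on chromosome 14 at 8309884 to 8309898 on the minus strand, lay 119 bases before 1 of its start sites. Matches thus occurred both near genes that rose and near a gene that fell.

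Besides Trim63, few genes of the degradation machinery were called. Of 39 ubiquitin ligases and deubiquitinases linked to muscle wasting, 2 were higher and 1 was lower (7.69%, near the 5.48% of all genes). In this list 24 had a difference above 0, and the median was 0.03. Of 39 proteasome subunits and activators none was called, against 5.48% of all genes, and 31 had a difference above 0, with a median of 0.01. Fbxo32, encoding the ligase atrogin-1, had 13.37, 13.47 and 13.78 with dexamethasone, against 13.23, 13.45 and 13.69 with vehicle, and the groups overlapped over most of their range. Fbxo40, a muscle ligase that targets the insulin receptor substrate, had 12.70, 12.79 and 12.84 with dexamethasone, against 13.03, 13.21 and 13.38 with vehicle, without overlap. Nedd4l, a ligase of membrane channels, was called (0.45, adjusted p = 0.0291) but kept its call in 6 of 12 fits that dropped a library (adjusted p up to 0.0711), losing it without vehicle 1, 2, 3 or 6 or dexamethasone 5 or 6. In the autophagy and lysosome list, 2 of 40 were higher and none lower (5.0%, near the 5.48% of all genes), and 27 had a difference above 0. Bnip3, a mitophagy receptor, had 12.23 to 12.42 with dexamethasone and 12.02 to 12.14 with vehicle (0.22 ± 0.04, adjusted p = 0.00398), and 22.3% of its exon bases also lie in a gene on the other strand, whose reads cannot be told apart since strand use is not given. Depp1, a FoxO-induced autophagy regulator, was called (0.57, adjusted p = 0.0349) and kept that in 2 of 12 such fits, those without vehicle 1 or vehicle 4 (adjusted p up to 0.0822).

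Some genes of amino acid transport and metabolism were higher. Of 44 tested, 7 were higher (15.9%, against 3.72% of all genes) and none lower, the other 37 were not called, 39 had a difference above 0, and the median was 0.07. Slc7a8, a transporter of large neutral amino acids, had 11.19, 11.33 and 11.51 with dexamethasone, against 9.81, 10.59 and 10.72 with vehicle (0.88 ± 0.13, adjusted p = 0.00139). Its lowest vehicle value was vehicle 3, and without that library the difference was 0.75. Slc43a1, a second transporter of this class, had 8.47, 8.95 and 9.20 with dexamethasone, against 8.02, 8.22 and 8.37 with vehicle (0.72 ± 0.11, adjusted p = 0.00141). Glul, glutamine synthetase, had 14.13, 14.27 and 14.37 with dexamethasone, against 13.57, 13.72 and 14.00 with vehicle. None of these 3 genes had overlapping groups. Enzymes of branched-chain amino acid breakdown rose by less. Bcat2, the mitochondrial aminotransferase, was at 10.57 to 10.67 with dexamethasone and 10.04 to 10.44 with vehicle (0.28 ± 0.06), and 15.9% of its exon bases are shared with an antisense gene. Dbt, of the branched-chain ketoacid dehydrogenase complex, was at 9.49 to 9.83 with dexamethasone and 9.06 to 9.48 with vehicle. Aldh6a1, which acts late in valine breakdown, rose by 0.26 (adjusted p = 0.0192), lost only without dexamethasone 6 (adjusted p = 0.0507). Of its exon bases 18.6% are shared with a gene on the other strand. Slc7a5, another large neutral amino acid transporter, rose by 0.49 (adjusted p = 0.0385), and that call was kept in 5 of 12 fits that dropped a library (adjusted p up to 0.0929), lost without vehicle 1, 2, 5 or 6 or dexamethasone 4, 5 or 6.

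Brakes on growth signalling moved in single genes. Of 25 genes that restrain mTORC1, 2 were higher and none lower (8.0%, against 5.48% of all genes), with a median of 0.03. Sesn1, a leucine-sensing sestrin, had 11.06, 11.28 and 11.56 with dexamethasone, against 10.17, 10.59 and 10.78 with vehicle, and Klf15, a zinc finger regulator of amino acid use, 11.35, 11.49 and 11.66 with dexamethasone, against 10.72, 11.06 and 11.14 with vehicle. Both were robust with no overlap. Ddit4, encoding REDD1, was at 12.73 to 13.01 with dexamethasone and at 11.52 to 12.84 with vehicle and was not called, and 11.52 was vehicle 3. Igf1, the growth factor gene, differed by −0.30 (adjusted p = 0.436). In the list of myostatin, activin, BMP and TGF-beta signalling, 4 of 49 were higher and 1 lower (10.2%, against 5.48% of all genes). The median was 0.03. The robust rises there were Zfp423, a BMP-dependent transcription factor of adipocyte precursors (9.20, 9.26 and 9.42 with dexamethasone, against 7.99, 8.23 and 8.55 with vehicle), the growth factor gene Tgfb3 (0.29 ± 0.04) and the signal transducer gene Smad2 (0.20 ± 0.04, adjusted p = 0.0171). Mstn, myostatin itself, was at 10.80 to 11.40 with dexamethasone and 10.14 to 11.05 with vehicle, with overlap (0.42 ± 0.16, adjusted p = 0.171).

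**Figure D3:**
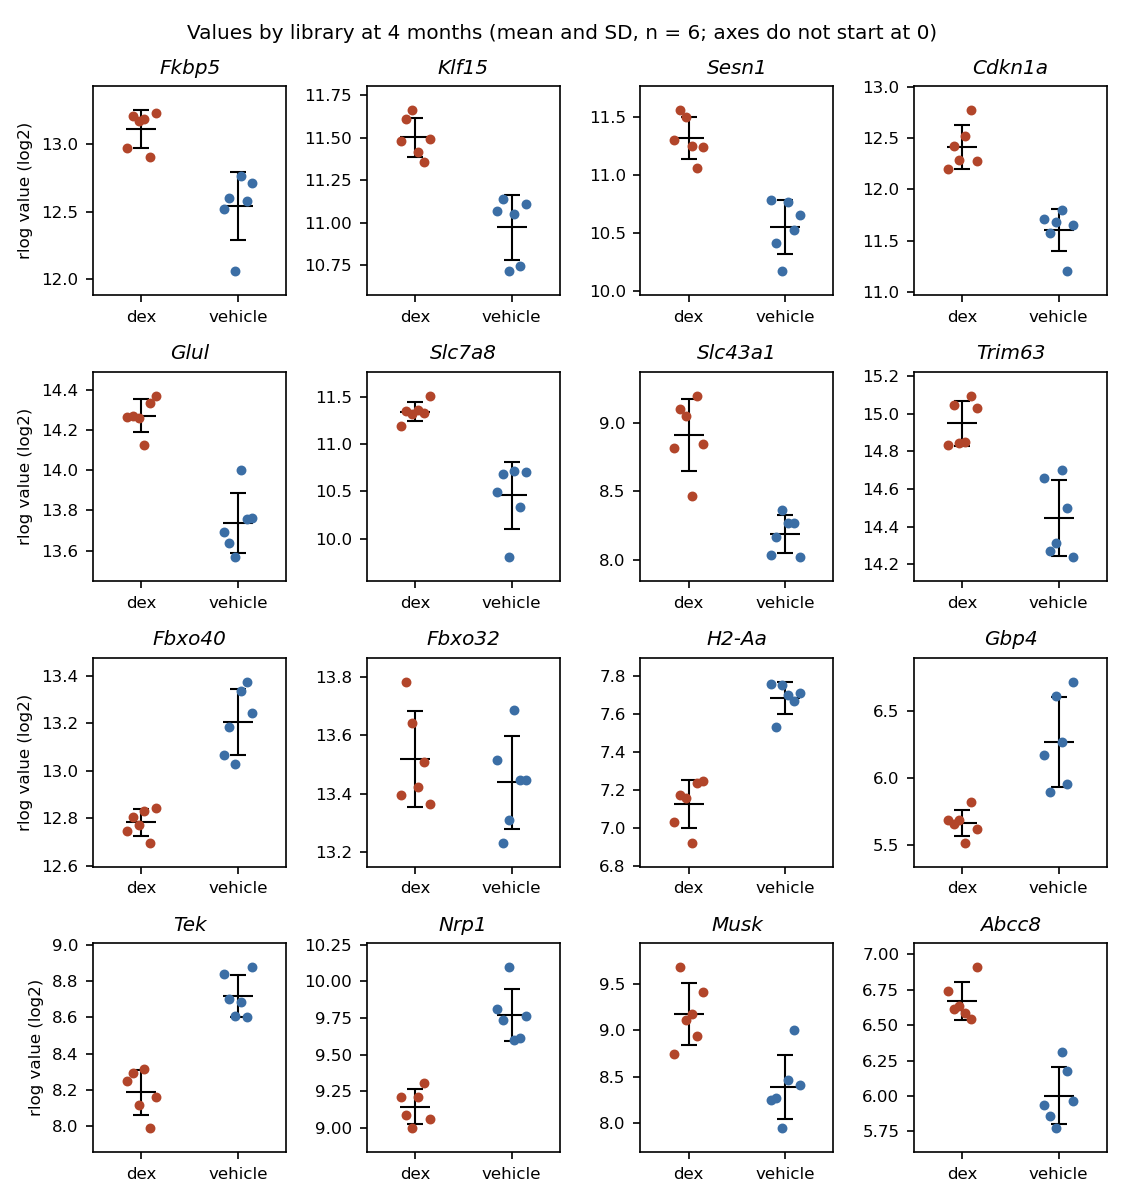
rlog values (log2, vertical axis, not starting at 0) of 16 genes in the 6 dexamethasone libraries (dex, left, red) and the 6 vehicle libraries (right, blue), with mean and SD. The groups are apart in all genes shown but Fbxo32 and Musk, whose points overlap.

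A minority of the fatty acid genes were higher, among them peroxisomal and mitochondrial enzymes. Among 41 genes that take up or oxidise fatty acids, 8 rose (19.5%, against 3.72% of all genes) and none fell, 35 had a difference above 0, and the median was 0.08. Ehhadh, the bifunctional enzyme of peroxisomal oxidation, had 7.70, 7.89 and 8.11 with dexamethasone, against 7.05, 7.28 and 7.57 with vehicle (0.60 ± 0.09, adjusted p = 0.00205). Eci2, an enoyl-CoA isomerase, had 11.34, 11.46 and 11.55 with dexamethasone, against 10.84, 11.05 and 11.13 with vehicle. Ucp2, a mitochondrial carrier, had 10.54, 10.65 and 10.76 with dexamethasone, against 9.76, 10.27 and 10.47 with vehicle (0.48 ± 0.11, adjusted p = 0.0178). All 3 had no overlap. The thioesterase genes Acot1 and Acot2 rose by 0.63 and 0.56, but they are near-identical neighbours and reads may be shared, and Acot2 was not called with the shared spread (adjusted p = 0.0520). Ppard, a nuclear receptor that drives fat use, rose by 0.37. Ucp3, the muscle uncoupling protein, rose by 0.21 (adjusted p = 0.0335), and that call was kept in 5 of 12 fits that dropped a library (adjusted p up to 0.0781), lost without vehicle 4, 5 or 6 or dexamethasone 2, 3, 4 or 6. Of 63 genes of oxidative phosphorylation and the citrate cycle none was called, against 5.48% of all genes. In this list 56 had a difference above 0 (median 0.02).

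At the lipid droplet, an inhibitor and its enzyme were both higher. Of 37 genes, 4 were higher and 2 lower (16.2%, against 5.48% of all genes). G0s2, which inhibits adipose triglyceride lipase, had 7.76, 8.46 and 9.19 with dexamethasone, against 6.97, 7.38 and 7.69 with vehicle. Pnpla2, that lipase, had 13.52, 13.60 and 13.71 with dexamethasone, against 13.05, 13.26 and 13.46 with vehicle (0.36 ± 0.06, adjusted p = 0.00477). Mgll, which takes the last fatty acid off glycerol, had 9.77, 9.88 and 10.03 with dexamethasone, against 10.06, 10.32 and 10.51 with vehicle (−0.43 ± 0.07, adjusted p = 0.00252). The groups did not overlap in any of them. The other calls held in few fits with 1 library left out. Plin4, a lipid droplet coat protein, was called higher (0.45, adjusted p = 0.0351) and kept its call in 6 of 12 such fits, losing it without vehicle 1 or 5 or dexamethasone 2, 3, 4 or 6 (adjusted p up to 0.0873). Mlxipl, the carbohydrate-responsive factor ChREBP, was called lower (−0.22, adjusted p = 0.0494) and kept its call in 2 of 12, those without vehicle 4 or dexamethasone 4 (adjusted p up to 0.103). Of 12 adipocyte markers none was called, against 5.48% of all genes, at which a list this short can have none. The mean of that list was 7.16 to 7.75 with dexamethasone and 7.06 to 7.62 with vehicle.

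In glucose handling, 1 of 46 genes was called (2.17%, against 5.48% of all genes). Slc2a4, the insulin-regulated transporter GLUT4, differed by 0.06 (adjusted p = 0.590) and Pdk4, which turns off pyruvate oxidation, by 0.20 (adjusted p = 0.0797). Dio2, the deiodinase that makes active thyroid hormone, had 6.65, 6.89 and 7.36 with dexamethasone, against 5.68, 5.79 and 6.58 with vehicle, where 6.58 was vehicle 3. It was 1 of 2 genes higher and none lower among 15 of thyroid hormone handling (13.3%, against 5.48% of all genes).

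Class II genes of antigen presentation were lower with dexamethasone, a result that depended on how the spread was estimated. Of 23 antigen presentation genes, 7 were lower (30.4%, against 1.76% of all genes) and none higher, 21 had a difference below 0, and the median was −0.16. H2-Aa, the class II alpha chain, had 6.92, 7.16 and 7.24 with dexamethasone, against 7.53, 7.71 and 7.76 with vehicle. H2-Eb1, a beta chain, had 7.06, 7.29 and 7.40 with dexamethasone, against 7.59, 7.82 and 7.93 with vehicle (−0.52 ± 0.07, adjusted p = 0.000697). Cd74, the invariant chain that escorts class II molecules, had 8.23, 8.62 and 8.69 with dexamethasone, against 8.87, 9.01 and 9.19 with vehicle (−0.46 ± 0.07, adjusted p = 0.00234). The groups were apart in each, and H2-Ab1 (−0.50) and the peptide loader gene H2-DMb1 (−0.20) were also robust. The class II genes are a family of related sequences, so some reads may be uncertain. With the shared spread 1 of the 23 was lower, against 110 of all 12866 genes. In that setting H2-Aa, H2-Eb1, H2-Ab1, Cd74 and H2-DMb1 were not called (adjusted p = 0.151 to 0.272). Ciita, the class II master regulator, was near the filter and differed by −0.03 (adjusted p = 0.791). Of the immunoproteasome subunit genes, Psmb8 fell by 0.37 (adjusted p = 0.0365) and Psmb9 by 0.16 (adjusted p = 0.0333). With single libraries removed these calls were kept in 5 and 2 of 12 fits (adjusted p up to 0.0888 and 0.0801). Psmb8 kept its call only without vehicle 3, 4 or 5 or dexamethasone 1 or 5, and Psmb9 only without vehicle 5 or dexamethasone 5.

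Of 44 interferon-stimulated genes, 4 were lower (9.09%, against 1.76% of all genes) and none higher, 39 had a difference below 0, and the median was −0.18. Gbp9, an interferon-inducible GTPase, had 6.31, 6.38 and 6.66 with dexamethasone, against 6.83, 7.08 and 7.50 with vehicle, and Gbp4, a paralog, had 5.52, 5.67 and 5.82 with dexamethasone, against 5.90, 6.22 and 6.72 with vehicle. Sp100, a nuclear body protein, had 6.64, 6.78 and 6.84 with dexamethasone, against 7.03, 7.10 and 7.52 with vehicle (−0.42 ± 0.08, adjusted p = 0.00609, and 0.0719 with the shared spread). Vehicle 3 was the highest or next to highest vehicle library in these 3 genes, and none overlapped between groups. Dtx3l, a ubiquitin ligase partner of PARP9, fell by 0.25. The mean of the list was 6.02 to 6.33 with dexamethasone and 6.14 to 6.64 with vehicle, where the highest of each group were dexamethasone 5 and vehicle 3. The mean difference was −0.18, and −0.15 without those 2 libraries.

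Markers of cells that carry class II gave few calls of their own. Of 14 macrophage and monocyte markers, 1 was lower (7.14%, against 5.48% of all genes called) and none higher, 11 had a difference below 0, and the list mean was 6.17 to 6.65 with dexamethasone and 6.24 to 6.76 with vehicle. The call was Ccr2, a receptor of inflammatory monocytes (4.60, 4.73 and 4.89 with dexamethasone, against 4.88, 5.01 and 5.35 with vehicle; −0.32 ± 0.07, adjusted p = 0.0209), lost of the 12 fits with 1 library left out only without dexamethasone 4 (adjusted p = 0.0518), and lost with the shared spread (adjusted p = 0.0835). Of 5 dendritic cell markers above the filter, 2 were lower, H2-Aa and Cd74, which are themselves antigen presentation genes, so they say nothing separate about those cells. The part of these cells in the class II result was not tested. In bulk muscle, fewer cells of a type and less RNA per cell cannot be told apart.

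Of 39 genes of NF-kB signalling and cytokines, 2 were higher and 1 lower (7.69%, near the 5.48% of all genes; median −0.04), and the other 36 were not called. Nfkbia, the inhibitor of NF-kB, was at 10.85 to 11.06 with dexamethasone and 10.34 to 10.85 with vehicle, the groups meeting at vehicle 1. Il6ra, a subunit of the interleukin-6 receptor, had 8.62, 9.31 and 9.43 with dexamethasone, against 7.48, 8.09 and 8.42 with vehicle. Cxcl12, a chemokine that retains leukocytes, had 9.99, 10.06 and 10.26 with dexamethasone, against 10.29, 10.40 and 10.48 with vehicle, without overlap (−0.31 ± 0.05, adjusted p = 0.00203, and 0.105 with the shared spread). Among 26 complement and acute-phase genes, 3 were higher and none lower (11.5%, against 5.48% of all genes), Lcn2 with the largest rise. Lcn2 is also counted among the glucocorticoid-induced targets and the iron-handling genes, so these lists overlap. Orm1, an acute-phase glycoprotein, rose by 0.32 near the filter (3.56 to 3.88 with dexamethasone, against 3.33 to 3.43 with vehicle; adjusted p = 0.00375, and 0.745 with the shared spread).

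Besides Lcn2, 2 genes of metal handling were called. Of 27 iron-handling genes, 3 were higher and none lower (11.1%, against 5.48% of all genes called), but 15 had a difference below 0 and the median was −0.01. Slc39a14, which imports zinc and non-transferrin iron, had 11.42, 11.71 and 12.13 with dexamethasone, against 10.70, 10.81 and 10.99 with vehicle (0.92 ± 0.09, 1.89-fold, adjusted p = 0.000107). Heph, a ferroxidase that helps iron leave cells, had 5.07, 5.42 and 5.57 with dexamethasone, against 4.88, 4.93 and 5.01 with vehicle (0.44 ± 0.07, adjusted p = 0.00289). Both genes had no overlap, and dexamethasone 5 was the highest library for Lcn2 and Slc39a14 and the lowest dexamethasone library for Heph.

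Genes of vessel growth were called in both directions. Of 37 angiogenesis and VEGF genes, 5 were lower and 4 higher (24.3%, against 5.48% of all genes), with a median of −0.05, and 4 of the falls but 1 of the rises were robust. Nrp1, a co-receptor of VEGF and semaphorins, had 8.998, 9.15 and 9.31 with dexamethasone, against 9.60, 9.75 and 10.10 with vehicle. Tek, the angiopoietin receptor TIE2, had 7.99, 8.21 and 8.32 with dexamethasone, against 8.60, 8.69 and 8.88 with vehicle (−0.53 ± 0.06, adjusted p = 0.000427). Aplnr, the apelin receptor, had 4.65, 4.68 and 4.81 with dexamethasone, against 4.84, 5.28 and 5.45 with vehicle (−0.52 ± 0.08, adjusted p = 0.00177). None of the 3 overlapped, though for Aplnr vehicle 5, at 4.84, lay close to the highest dexamethasone value. Nrp2, the other neuropilin, fell by 0.30. Dll4, the Notch ligand of sprouting vessels, was called at −0.34 (adjusted p = 0.0411) in the fit of all libraries and held in 2 of 12 with 1 left out, those without vehicle 5 or dexamethasone 1 (adjusted p up to 0.0951). Edn1, the vasoconstrictor endothelin 1, was robustly higher (0.41 ± 0.09, adjusted p = 0.0198), though not called without both vehicle 3 and dexamethasone 5 (adjusted p = 0.0595). Angptl4, an inhibitor of lipoprotein lipase that also acts on vessels, was the largest called rise, with 9.21, 9.52 and 9.92 with dexamethasone, against 8.63, 8.87 and 9.63 with vehicle (0.59 ± 0.15, adjusted p = 0.0404). The top vehicle value was vehicle 3, and the call was kept in 2 of 12 fits that dropped a library, those without vehicle 3 or dexamethasone 3 (adjusted p up to 0.0884). Egln3, a prolyl hydroxylase of hypoxia-inducible factor, was called higher (0.35, adjusted p = 0.0479), which held in 4 of 12 such fits, those without vehicle 1, 3 or 4 or dexamethasone 6 (adjusted p up to 0.107). Vegfd, a ligand of lymphatic vessel growth, was called higher (0.26, adjusted p = 0.0427), which held in 2 of 12 of them, those without vehicle 4 or dexamethasone 3 (adjusted p up to 0.0964). Vegfa, the main ligand, differed by −0.24 (adjusted p = 0.126) and its receptor gene Kdr by −0.25 (adjusted p = 0.140).

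Some markers of endothelium were lower. Of 16, 4 were lower and 1 higher (31.2%, against 5.48% of all genes), 11 had a difference below 0, and the median was −0.11, with a list mean of 9.77 to 9.96 with dexamethasone and 9.85 to 10.03 with vehicle. Pecam1, the pan-endothelial adhesion molecule CD31, was at 11.11 to 11.26 with dexamethasone and 11.28 to 11.42 with vehicle (−0.17 ± 0.04, adjusted p = 0.0151, but 0.0531 without both vehicle 3 and dexamethasone 5). Egfl7, a secreted endothelial factor, had medians of 9.11 with dexamethasone and 9.52 with vehicle (−0.36 ± 0.07), with overlap. With the shared spread 2 of the 16 were lower, against 110 of all 12866 genes, and Pecam1 and Egfl7 were not called (adjusted p = 0.240 and 0.0989). Cdh5, VE-cadherin, was at 11.24 to 11.64 with dexamethasone and 11.23 to 11.44 with vehicle and was not called (0.09, adjusted p = 0.572). Emcn, endomucin, was the 1 higher marker (0.21, adjusted p = 0.0451), kept in 2 of 12 fits that dropped a library, those without vehicle 3 or dexamethasone 6 (adjusted p up to 0.104). That call was also lost with no filter on low values, after quantile normalisation and after median centring (adjusted p = 0.0578, 0.0557 and 0.0630). The part of endothelial cell number in the fall of Nrp1, Nrp2, Tek and Aplnr was not tested.

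Single mural cell markers and Notch genes of the vessel wall were called. Of 14 pericyte and smooth muscle markers, 2 were lower and 1 higher (21.4%, against 5.48% of all genes). With the shared spread none was lower and 1 higher, against 110 lower and 360 higher of all 12866 genes. Notch3, the receptor that maintains mural cells, was at 8.92 to 9.43 with dexamethasone and 9.40 to 9.66 with vehicle (−0.35 ± 0.07, adjusted p = 0.0141), and dexamethasone 4 alone reached the vehicle range. Heyl, a Notch target, fell by 0.29 (adjusted p = 0.0145) and Pdgfrb, the PDGF receptor of mural cells, by 0.22 (adjusted p = 0.0142). With the shared spread Notch3, Heyl and Pdgfrb were not called (adjusted p = 0.0889, 0.153 and 0.343). Cspg4, the proteoglycan NG2, had 8.52, 8.76 and 8.97 with dexamethasone, against 8.18, 8.34 and 8.51 with vehicle (0.40 ± 0.08, adjusted p = 0.00772), opposite to Pdgfrb in the same libraries. Notch2, a receptor also of satellite cells, was called higher (0.34, adjusted p = 0.0277), and that call was kept in 6 of 12 fits that dropped a library (adjusted p up to 0.0711), lost without vehicle 1, 2 or 3 or dexamethasone 2, 3 or 6. Met, the hepatocyte growth factor receptor of satellite and endothelial cells, had 7.85, 8.05 and 8.14 with dexamethasone, against 8.31, 8.40 and 8.53 with vehicle, without overlap (−0.39 ± 0.06, adjusted p = 0.00160, and 0.229 with the shared spread). None of 10 satellite cell markers was called, against 5.48% of all genes. A list this short can have none at that share.

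Among matrix genes, a few structural proteins and a few enzymes that shape matrix were called. Of 48 extracellular matrix proteins, 2 were higher and 2 lower (8.33%, against 5.48% of all genes). In this list 34 had a difference below 0, and the median was −0.05. Col5a1, a chain of fibril-forming collagen V, had 9.97, 10.07 and 10.51 with dexamethasone, against 9.29, 9.47 and 9.85 with vehicle (0.58 ± 0.11, adjusted p = 0.00484). Col15a1, of the basement membrane zone, had 8.22, 8.45 and 8.67 with dexamethasone, against 8.84, 9.03 and 9.32 with vehicle. Both were free of overlap, and Col4a4, a chain of basement membrane collagen IV, rose by 0.40. Col3a1, a main collagen of interstitial matrix, ranged from 11.44 to 12.27 with dexamethasone and from 11.52 to 12.44 with vehicle (−0.19, adjusted p = 0.695). Lum, the proteoglycan lumican, was called lower (−0.41, adjusted p = 0.0411) and kept its call in 3 of 12 fits that dropped a library, those without vehicle 6 or dexamethasone 1 or 6 (adjusted p up to 0.0889).

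Of 34 matrix remodelling enzymes and inhibitors, 5 were higher and 1 lower (17.6%, against 5.48% of all genes), while 21 had a difference below 0 and the median was −0.06. Adamtsl2, a secreted regulator of microfibrils, had 6.58, 6.63 and 7.18 with dexamethasone, against 5.88, 5.95 and 6.16 with vehicle (0.74 ± 0.09, adjusted p = 0.000449). Adamts15, a versican-cleaving protease, rose by 0.47 and Plod2, a collagen lysyl hydroxylase, by 0.31. With the shared spread 2 of the 34 were higher, against 360 of all 12866 genes. In that setting Adamtsl2, Adamts15 and Plod2 were not called (adjusted p = 0.252, 0.0501 and 0.0550). Timp4, a metalloproteinase inhibitor, had 8.65, 8.80 and 8.89 with dexamethasone, against 9.14, 9.46 and 9.73 with vehicle. It was the only member of the list called lower. Of 16 markers of fibro-adipogenic progenitors and fibroblasts, 14 had a difference below 0 and the median was −0.16. Of them, 2 were called lower and none higher (12.5%, against 5.48% of all genes). These were Lum and Cd34, a surface sialomucin of progenitors and endothelium (−0.26, adjusted p = 0.0162). Neither was called with the shared spread (adjusted p = 0.279 and 0.131). Without both vehicle 3 and dexamethasone 5 Cd34 was not called (adjusted p = 0.0590). The mean of this list was 8.91 to 9.42 with dexamethasone and 8.95 to 9.54 with vehicle, with a difference between the group means of −0.15. The part of these cells in the matrix values was not tested.

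Few genes of the contractile and excitable machinery changed. Of 44 contractile protein isoforms, 1 was higher and none lower (2.27%, against 5.48% of all genes), Tcap, the titin cap protein (0.24, adjusted p = 0.0230). The Tcap call was kept in 7 of 12 fits that dropped a library (adjusted p up to 0.0567), lost without vehicle 6 or dexamethasone 2, 3, 4 or 6, and was also lost after quantile normalisation (adjusted p = 0.103). No slow fibre marker of 10 was called, against 5.48% of all genes, at which a list this short can have none. The mean of that list spread from 7.62 to 8.07 with dexamethasone and from 7.21 to 8.29 with vehicle. Of 56 genes of calcium handling, ion channels and transporters, 2 were higher and 3 lower (8.93%, against 5.48% of all genes). Abcc8, the sulfonylurea receptor of ATP-sensitive potassium channels, had 6.55, 6.62 and 6.91 with dexamethasone, against 5.77, 5.95 and 6.31 with vehicle (0.67 ± 0.09, adjusted p = 0.000653). Slc4a4, a sodium bicarbonate cotransporter, had 7.77, 7.95 and 8.25 with dexamethasone, against 8.65, 8.85 and 9.32 with vehicle. Both genes had no overlap. Slc16a1, the lactate transporter MCT1, fell by 0.34 (adjusted p = 0.00723). Rem1, a small GTPase that restrains calcium channels, was called at −0.21 (adjusted p = 0.0227), a call lost without dexamethasone 2, 3 or 6 (adjusted p up to 0.0558).

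At the neuromuscular junction, 1 of 30 genes was higher and 1 lower (6.67%, near the 5.48% of all genes). Musk, the kinase that clusters acetylcholine receptors, had 8.75, 9.15 and 9.68 with dexamethasone, against 7.95 and 8.34 as the lowest and median with vehicle (0.79 ± 0.17, adjusted p = 0.0157). The groups overlapped through vehicle 5, which lay above dexamethasone 1 and 5, and the call was robust. Ky, the kyphoscoliosis peptidase of the sarcomere, was called lower (−0.50, adjusted p = 0.0385) and kept its call in 4 of 12 fits that dropped a library, those without vehicle 3 or 4 or dexamethasone 5 or 6 (adjusted p up to 0.0909).

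Single robust genes also occurred in smaller groups, in the clock, in stress pathways and in cofactor metabolism. Of 22 core circadian clock genes, 2 were higher and 1 lower (13.6%, against 5.48% of all genes), with a median of 0.07. Npas2, a partner of BMAL1 that activates clock genes, had 5.96, 6.07 and 6.20 with dexamethasone, against 5.41, 5.54 and 5.67 with vehicle (0.53 ± 0.06, adjusted p = 0.000194). Bhlhe41, a repressor of that activity, had 10.26, 10.52 and 10.61 with dexamethasone, against 10.81, 11.06 and 11.43 with vehicle, and part of its exon bases are shared with a gene on the other strand. Nfil3, a repressor of clock-controlled genes, rose by 0.48 (adjusted p = 0.0249), lost without vehicle 2 or 6 (adjusted p up to 0.0580), with its highest value of 11.69 in dexamethasone 5. Per1, a clock repressor and known receptor target, differed by 0.19 (adjusted p = 0.286). All libraries were labelled with the same interval after the last injection, and the clock hour was not used here.

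Of 26 genes of the integrated stress response, 2 were higher and 1 lower (11.5%, against 5.48% of all genes). Cth, which makes cysteine from cystathionine, had 6.38, 6.66 and 6.95 with dexamethasone, against 5.60, 6.01 and 6.21 with vehicle (0.70 ± 0.11, adjusted p = 0.00177), and Herpud1, of endoplasmic reticulum protein disposal, rose by 0.27 (adjusted p = 0.00281). Neither had overlapping groups. Chac1, which degrades glutathione, was called lower (−0.69, adjusted p = 0.0427) and kept its call in 2 of 12 fits that dropped a library, those without dexamethasone 1 or 5 (adjusted p up to 0.101). Of 38 genes of the cell cycle and p53 targets, 3 were higher and 3 lower (15.8%, against 5.48% of all genes). Cdkn1a, the cell cycle inhibitor p21, had 12.20, 12.36 and 12.78 with dexamethasone, against 11.20, 11.67 and 11.79 with vehicle, whereas Trp53, encoding p53, had 7.72, 7.78 and 7.89 with dexamethasone, against 7.94, 8.04 and 8.19 with vehicle (−0.27 ± 0.05, adjusted p = 0.00502, and 0.0509 with the shared spread). The groups were apart in both, in opposite directions.

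Nmrk2, a muscle nicotinamide riboside kinase that feeds NAD synthesis, was the 1 gene called of 22 in NAD metabolism (4.55%, near the 5.48% of all genes). Its values were 9.81, 10.02 and 10.26 with dexamethasone, against 10.94, 11.11 and 11.62 with vehicle (0.45-fold). Of 16 retinoid genes, 2 were called higher and 1 lower (18.8%, against 5.48% of all genes). Both rises were robust, the retinaldehyde reductase gene Dhrs3 (0.35 ± 0.07, adjusted p = 0.00931) and Stra6, a vitamin A receptor near the filter (0.12 ± 0.03). With the shared spread Dhrs3 and Stra6 were not called (adjusted p = 0.0501 and 0.265). No gene was called among 80 cytosolic ribosomal proteins or 19 genes of polyamine and creatine metabolism. Among 52 translation factors 1 was higher (1.92%), among 37 chaperones 2 (5.41%), and among 41 antioxidant and metallothionein genes 2 (4.88%). None was lower in these 3 lists, and 5.48% of all genes were called.

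**Figure D4:**
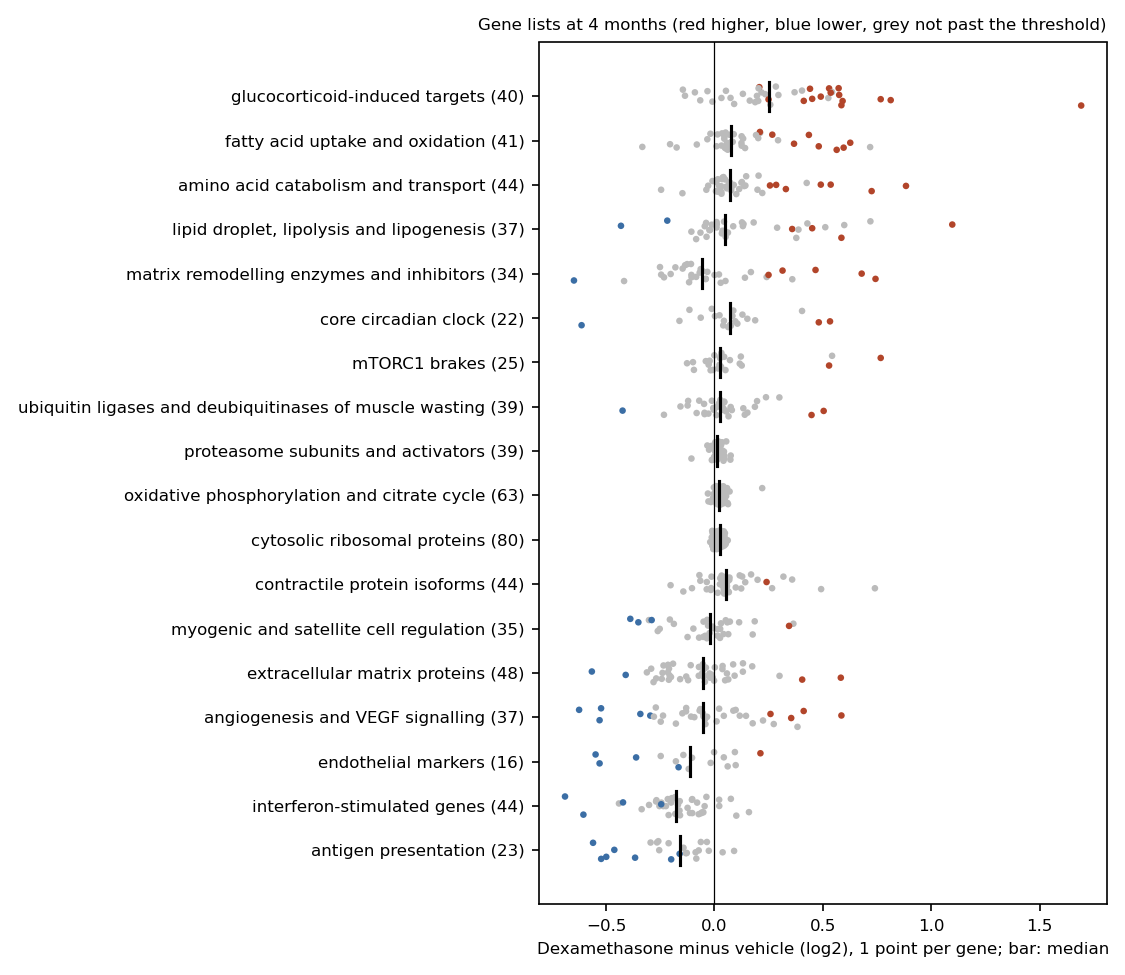
Difference between dexamethasone and vehicle (log2, horizontal axis) of each gene (1 point) in 18 lists, with the number tested in brackets, red for called higher, blue for called lower, grey for not called, and a black bar at the list median. Glucocorticoid-induced targets have the median furthest above 0, at 0.25, and interferon-stimulated genes the one furthest below, at −0.18, while proteasome, oxidative phosphorylation and ribosomal genes sit within a narrow band around 0.

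The series also allowed the response at 4 months to be set against that at 24 months, and no gene differed between the ages past the threshold. In a limma model of all 4 groups, the interaction term passed the adjusted threshold in 0 of 12676 genes, and 393 had an unadjusted p under 0.05. With library weights by age the counts were 0 and 404. The ages had been transformed apart by the authors, since 858 genes were at exactly 0 in all libraries at 4 months and not at 24 and 619 in the reverse position, so the differences are compared and not the levels. All 40 leading genes of 4 months had the same sign at 24 months, and 34 of them were called there, 20 rises and 14 falls, against 6.39% of the genes tested at both ages. The 6 others were Slc4a4, Col15a1, H2-Aa, H2-Eb1, H2-Ab1 and Abca8a.

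Among the named genes, Slc4a4, Pag1, Greb1 and Col5a1 had the lowest adjusted p for a gap between the ages, 0.277 in each. Slc4a4 differed by −0.91 ± 0.11 at 4 months and by −0.14 ± 0.12 at 24 months (difference of the differences −0.77 ± 0.17). Pag1 differed by 1.02 ± 0.12 at 4 months and 1.86 ± 0.13 at 24 months, and Greb1, an oestrogen-responsive gene, by 1.50 ± 0.13 and 2.17 ± 0.07. Col5a1 differed by 0.58 ± 0.11 at 4 months and 1.36 ± 0.11 at 24 months, a gap of −0.78 ± 0.16. An unequal response between the ages was therefore not shown for these genes.

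**Figure D5:**
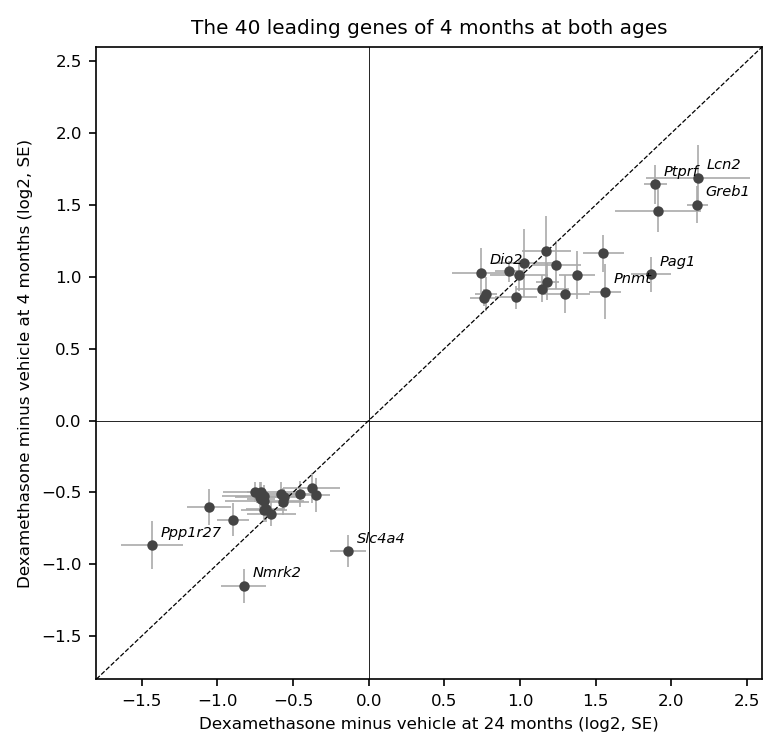
Difference between dexamethasone and vehicle (log2) at 4 months (vertical axis) against 24 months (horizontal axis) for the 40 leading genes of 4 months, with SE bars and the line of equal differences. All points lie in the quadrants of equal sign, Slc4a4 lies nearest to 0 at 24 months, at −0.14, and Pag1 and Greb1 lie right of the line.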

How the data were processed

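Values were deposited as rlog, a regularised log2 transform, per the file headers. The submitters' processing notes name DESeq2 1.30.1, software that offers this transform, and the mm10 build. Aligner, counter, annotation and strand use: not given in the sources used here. There are 24982 genes in 24 libraries and no counts, so depth is unknown and precision was judged from the spread between libraries alone. The transform shrinks differences of weakly expressed genes.

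The 12 libraries of 4-month mice were taken alone. Of the genes, 6295 were constant and 5821 had a mean under 3, which left 12866. The treatments were compared by limma 3.58.1 (R 4.3.3) on the deposited log2 values, with empirical Bayes moderation, an intensity trend and Benjamini-Hochberg adjustment, two-sided, at 0.05. The fit was tested on simulated data. Their noise was independent between genes and no library stood apart, so the simulation cannot show how often calls are false here. The age interaction used all 24 libraries and genes with a mean of at least 3 at each age. Alternatives changed the filter, normalisation, moderation, weights, the block, the samples sharing the spread and the libraries left out.

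Gene lists were described by counts of called members and medians, with no test. The comparison, the lists and the genes named were chosen with earlier results of these data known. Named genes were the 20 largest rises and 20 largest falls that had a mean of at least 5, no overlap and a call in all 12 fits with 1 library left out, and in each list up to 5 called members each way, robust ones first, and up to 3 that were not called. A few of the genes this rule names are not reported here. Gene positions and promoters came from the RefSeq tables of GRCm38.p6, the same assembly as mm10, and exon overlaps from GENCODE vM21. Opposite-strand genes also share exon bases of Ckm (15.5%), Cebpd (15.0%), Psmb8 (14.7%), Nmrk2 (14.6%) and Tgm2 (13.7%). Further named genes have smaller overlaps that are not listed.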

Additional observations from a re-analysis of the deposited data

Results flagged for a closer look

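In 286 groups of 6 values, those of the named genes, 30 values stood far from the other 5 of their group by Dixon's criterion. Chance flags about 1 in 20 groups picked without regard to their values. Many of these genes were picked by their values and all share the same libraries, so that rate is no test here. Of the 30 values, 11 came from vehicle 3 and 6 from dexamethasone 5, the libraries that stood apart on the principal components. Another 4 came from vehicle 5. The tallies of vehicle 3 and dexamethasone 5 each include Socs3 and Rrad, picked after their values were seen. Their share of the flags is thus partly set by the choice of genes. No technical or biological cause was tested.

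Dexamethasone 5 was high for Lcn2 (11.35), Adamtsl2 (7.18), Nfil3 (11.69), Socs3 (10.86) and Rrad (10.49) and low for Prom1 (8.40). Dexamethasone 6 was high for Ppp1r13b (10.13) and Col5a1 (10.51), and dexamethasone 4 was low for Cd74 (8.23). All of these genes but Socs3 and Rrad were called in the direction reported, and Nfil3 was also called without dexamethasone 5.

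Vehicle 3 was low for Rnf169, a DNA damage response protein gene (7.88), 6430548M08Rik (10.62), Doc2b (7.75), Ppp1r13b (8.67), Fkbp5 (12.06) and Ddit4 (11.52), and high for Dio2 (6.58), Ccr2 (5.35), Socs3 (10.50), Rrad (11.66) and Angptl4 (9.635). Vehicle 5 was high for 9330159F19Rik (9.73) and low for Cdkn1a (11.20), Bcat2 (10.04) and Psmb9 (3.80). Vehicle 4 was low for Egln3 (9.665) and high for Vegfd (6.942). Vehicle 1 was high for Edn1 (7.21) and Plod2 (7.04), vehicle 2 for Adamtsl2 (6.16) and vehicle 6 for Smad2 (8.39).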

How the results depend on the processing

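The number of genes higher was 478, 326 to 572 under the other settings, and the number lower was 227, with 118 under the replicate block and 110 when all 4 groups shared 1 spread. Leaving out 1 library gave 341 to 476 higher and 152 to 219 lower. The numbers of the libraries did not pair them: the correlations of same-numbered libraries ran from −0.361 to 0.300, and the block kept 426 of the 705 calls. Of 121 named genes that were called, the block ended the call of 26 (12 of them robust), the shared spread that of 39 (25 robust), and the fit without vehicle 3 and dexamethasone 5, chosen after seeing the data, that of 13 (3 robust). The causes were not tested. Genes without overlap that were lower numbered 139, 165 to 234 with 1 library left out (234 without dexamethasone 5) and 281 without both of those libraries. Fewer values per group make overlap rarer by construction. Marker lists with a called member numbered 5, against 3 under the block, 2 with the shared spread and 4 to 6 with 1 library left out. Pathway lists with a larger share called than all genes numbered 26, and 24 to 29 under the alternatives. In a short list 2 calls exceed that share, as in the receptor machinery (2 of 23, 8.7%, against 5.48%). Some lists also share members such as Lcn2, and all were drawn up with earlier results known. The number is therefore a description and no test of enrichment. Tsc22d3 changed sign with 1 library left out (−0.0702 to 0.0111), without vehicle 5 or dexamethasone 4 (0.0111 and 0.00565). So did Socs3 (−0.566 to 0.414), not called in any of these fits. The interaction called 0 genes in each of its settings. Depth could not be judged, since no counts were given.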
